A study of Mus musculus with 10 samples.

Results

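The 9 genes described here encode regulators of skeletal muscle formation and markers of satellite cells, the stem cells of muscle. They are Myf5, Myod1, Myog, Myf6, Mef2c, Mymk, Pax7, Cdh15 and Ncam1, and they were chosen by name from 19938 genes that had a probe set of a single gene symbol. Each of the 9 had 1 probe set, and all 9 were among the 11963 genes whose mean lay at or above the 40th percentile. The tissue was gastrocnemius muscle of male C57BL/6 mice, measured on 10 Affymetrix arrays as log2 probe set signals, and each array held RNA pooled from 5 animals at 98 ng/µl.

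F0 EX mice had voluntary exercise and F0 SED mice were kept sedentary, and both were 28 weeks old, with 1 pool each. F1 EX and F1 SED mice descended from like-treated F0 parents, and F2 EX and F2 SED mice from F1 littermates bred to each other. All descendants were sedentary and 8 weeks old, with 2 pools in each of the 4 groups, so EX and SED name only their ancestry. The labels do not say that the pools of a group held different animals, so p-values measure only how far these pools differ, which can be a technical spread. Between F0 and descendants, generation, age and, for the F0 EX pool, its own exercise cannot be told apart. In whole muscle, fewer cells of a type and less RNA per cell cannot be told apart either.

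The myogenic regulatory factors Myf5, Myod1, Myog and Myf6 are basic helix-loop-helix proteins. They pair with E proteins and bind E-boxes in the promoters and enhancers of muscle genes, where Mef2 proteins act with them. In adult muscle Pax7 marks quiescent satellite cells, which switch on Myod1 when activated, then Myog as they differentiate, and use Mymk to fuse with fibres. Myf6 and Mef2c are also made by mature fibres, and Myog and Ncam1 rise in fibres that have lost their nerve.

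E-boxes are the sequences that these factors bind, so promoters of members that belong to different steps are shown, with each E-box in capitals. The E-box was searched as CANNTG, whose reverse complement has the same form. RefSeq promoters of assembly GRCm38.p6, covering 250 bases before and 50 bases after a transcript start, were held for 5 of the 9 members. Of the 4 members with 1 promoter entry, Myog is shown as the differentiation factor, Myf5 as the earliest factor and Cdh15 as an adhesion gene. They lie at chr1:134289754-134290053 on the + strand, chr10:107486085-107486384 on the - strand and chr8:122848124-122848423 on the + strand, in that order.
Myog promoter: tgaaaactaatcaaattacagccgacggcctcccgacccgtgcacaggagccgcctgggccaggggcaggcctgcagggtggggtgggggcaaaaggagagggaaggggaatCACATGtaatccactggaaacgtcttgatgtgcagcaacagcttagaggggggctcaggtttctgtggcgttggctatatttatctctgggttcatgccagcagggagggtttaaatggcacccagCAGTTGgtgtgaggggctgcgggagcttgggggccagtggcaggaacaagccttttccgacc
Myf5 promoter: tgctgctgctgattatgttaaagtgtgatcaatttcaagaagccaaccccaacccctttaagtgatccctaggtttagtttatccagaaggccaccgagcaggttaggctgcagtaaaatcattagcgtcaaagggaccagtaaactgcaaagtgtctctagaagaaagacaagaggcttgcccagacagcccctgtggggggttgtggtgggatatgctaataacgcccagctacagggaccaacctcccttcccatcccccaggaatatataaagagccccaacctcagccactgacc
Cdh15 promoter: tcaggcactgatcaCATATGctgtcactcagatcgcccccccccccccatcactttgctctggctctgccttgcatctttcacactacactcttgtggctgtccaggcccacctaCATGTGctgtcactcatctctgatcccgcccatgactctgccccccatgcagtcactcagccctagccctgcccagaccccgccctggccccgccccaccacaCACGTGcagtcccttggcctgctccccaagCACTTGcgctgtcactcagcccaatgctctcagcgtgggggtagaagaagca

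The Myog promoter held 2 E-boxes, CACATG and CAGTTG, whose first bases stood at -138 and -12 from the start. The Cdh15 promoter held 4, at -236, -135, -32 and -2. The promoters of Myf5 and Pax7 held 0, and the 3 promoter entries of Mef2c held 2, 0 and 1. Among 32544 mouse promoters of the same length, 72.3% held at least 1 E-box, 39.58% at least 2 and 6.48% at least 4. The E-box CAGCTG, counted within CANNTG, was in 0 of the 5 members' promoters and in 16.37% of all. These matches describe letters only, and 4 members had no promoter in the table.

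Of the 10 arrays, F0 SED and F1 EX pool 1 were the least like the rest. The median Pearson r with the other arrays was 0.974 for F0 SED and 0.979 for F1 EX pool 1, against 0.986 to 0.993 for the rest. The tissue label was checked against myofibre genes, of which 8 of 8 were kept. Ckm, muscle creatine kinase, lay between 12.75 and 13.31 over the 10 arrays. Acta1, skeletal actin, lay between 13.13 and 13.54. As a level for unexpressed genes, chosen after values were seen, 1027 olfactory receptor genes had a median mean signal of 2.11 and a 99th percentile of 3.55. Their array median was 2.30 for both F0 SED and F1 EX pool 1, against 2.06 to 2.11 in the other arrays. The means of Myf5, Mymk and Myog exceeded 99.42%, 99.51% and 99.61% of these receptor genes, and the other 6 members exceeded 100%.

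Among all 19938 genes, Mef2c stood at percentile 99.06 of mean signal and Myf6 at 96.66. Myod1, Cdh15 and Ncam1 stood at 84.09, 75.01 and 73.05. Pax7 stood at 58.25, Myog at 51.13, Mymk at 49.85 and Myf5 at 49.78. These percentiles place probe sets that differ in their own response, so they are not an order of transcript levels. Myf5 and Mymk had the widest spreads of the 9 over the arrays, at 1.13 and 1.06 between the lowest and the highest array. Those ranges were at percentiles 93.97 and 92.17 of the kept genes. Pax7 and Mef2c had narrow ranges, of 0.45 and 0.43, at percentiles 24.58 and 21.94.

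Myf5 (chromosome 10, probe set 10372226), which acts first among the factors in the embryo, had 3.34 in F0 EX and 3.73 in F0 SED. In F1 it had 4.47 and 3.58 in EX, against 3.88 and 3.84 in SED. In F2 it had 4.15 and 3.81 in EX, against 3.90 and 4.21 in SED. The highest value of the 10 was F1 EX pool 1, and its partner pool was the lowest of the descendants. Myod1 (chromosome 7, probe set 10553256), which satellite cells switch on when activated, had 6.95 in F0 EX and 6.95 in F0 SED. It had 7.30 and 6.42 in F1 EX, against 6.74 and 6.61 in F1 SED, and 6.89 and 6.69 in F2 EX, against 6.68 and 6.58 in F2 SED. Its highest and lowest values were the pools of F1 EX, as they were for Myf5 among descendants.

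Those pools of F1 EX differed by 0.88 in Myod1 and by 0.89 in Myf5. Across all kept genes, 1830 (15.3%) differed by 0.5 or more between them, against 279 to 344 genes (2.33% to 2.88%) between the pools of each other descendant group. Of the 9 members, Myod1 and Myf5 passed that bound in F1 EX, and 0 passed it in F1 SED, F2 EX or F2 SED. The 3 genes whose values followed Myod1 most closely over the 8 descendant arrays were Osbpl1a, Ndufb3 and Eif6, each at Pearson r 0.98. For Myf5 they were Sh2d4a at 0.97, Hspbp1 at 0.97 and Dpp7 at 0.96. F1 EX pool 1, the extreme array of both members, weighs heavily in these coefficients.

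Myog (chromosome 1, probe set 10349993), the factor that drives differentiation, had 3.81 in F0 EX and 3.63 in F0 SED. In F1 it had 3.94 and 4.003 in EX, against 3.77 and 3.89 in SED. In F2 it had 4.31 and 4.20 in EX, against 4.17 and 4.29 in SED. All 4 F2 arrays lay above all 4 F1 arrays, F0 EX lay within the F1 range and F0 SED below it. Mymk (chromosome 2, probe set 10481175), which encodes the fusion protein myomaker, had 3.45 in F0 EX and 3.61 in F0 SED. It had 3.58 and 3.75 in F1 EX, against 3.87 and 3.78 in F1 SED, and 4.51 and 4.01 in F2 EX, against 4.09 and 4.31 in F2 SED. Its F2 arrays also lay above every F1 array, with F0 SED inside the F1 range and F0 EX below it.

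Myf6 (chromosome 10, probe set 10372230), also called MRF4, is the factor most typical of mature fibres, and its gene neighbours Myf5. It had 8.93 in F0 EX and 9.02 in F0 SED. In F1 it had 8.52 and 8.75 in EX, against 8.92 and 8.59 in SED. In F2 it had 8.97 and 8.98 in EX, against 8.96 and 8.93 in SED. The F1 arrays were the 4 lowest, though the highest of them lay just under the lowest of F2. Mef2c (chromosome 13, probe set 10406434), the MADS-box partner of the myogenic factors, had 10.54 in F0 EX and 10.41 in F0 SED. It had 10.27 and 10.18 in F1 EX, against 10.34 and 10.24 in F1 SED, and 10.19 and 10.14 in F2 EX, against 10.16 and 10.11 in F2 SED. Both F0 arrays were above all 8 descendant arrays.

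Pax7 (chromosome 4, probe set 10517715), the transcription factor of satellite cells, had 4.36 in F0 EX and 4.61 in F0 SED. In F1 it had 4.81 and 4.56 in EX, against 4.79 and 4.62 in SED, and in F2 it had 4.69 and 4.42 in EX, against 4.67 and 4.57 in SED. The groups overlapped, apart from the single F0 EX array, which was the lowest. Cdh15 (chromosome 8, probe set 10576175), or M-cadherin, joins satellite cells to fibres and had 6.03 in F0 EX and 5.57 in F0 SED. It had 5.81 and 6.01 in F1 EX, against 6.03 and 5.94 in F1 SED, and 6.01 and 6.10 in F2 EX, against 6.17 and 5.99 in F2 SED. F0 SED and F1 EX pool 1 were its lowest arrays. Ncam1 (chromosome 9, probe set 10593293), an adhesion molecule of satellite cells, nerve and denervated fibres, had 5.61 in F0 EX and 5.53 in F0 SED. Its values were 5.84 and 5.67 in F1 EX, against 5.94 and 5.68 in F1 SED, and 5.93 and 6.00 in F2 EX, against 5.81 and 5.91 in F2 SED. Both F0 arrays were below every descendant array.

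**Figure D1:**
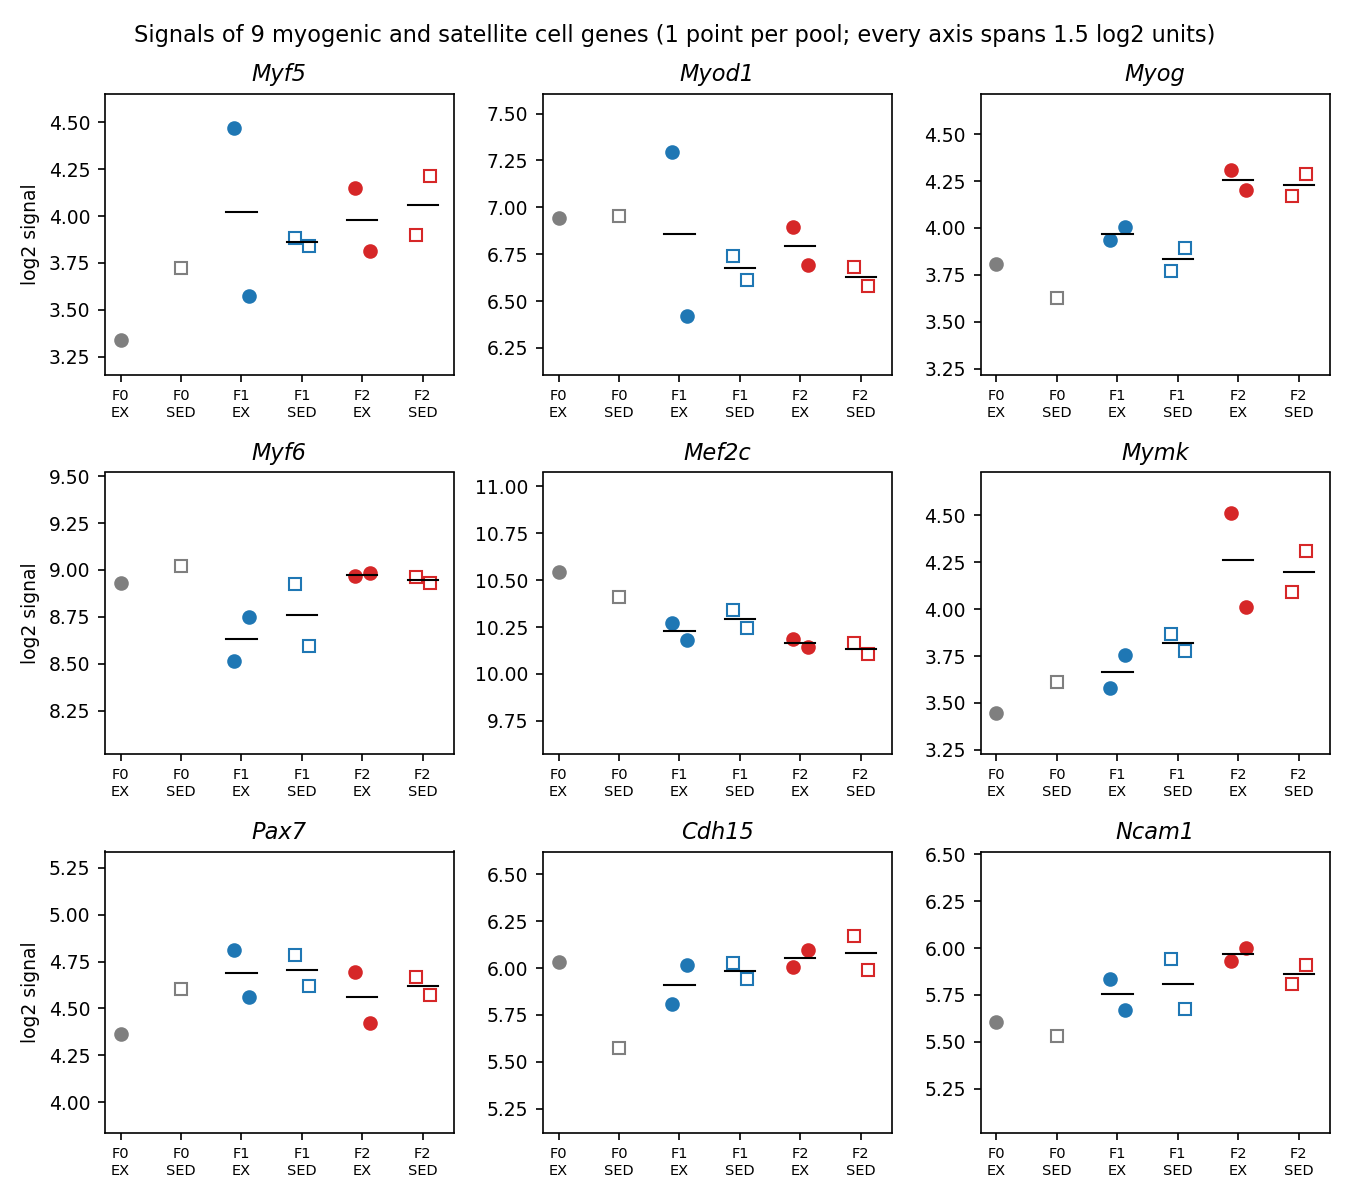
Log2 probe set signal of each of the 9 genes by group, with 1 point per array (1 pool in each F0 group, 2 pools in each descendant group) and black bars at the mean of 2 pools. The 4 F2 points of Myog, from 4.17 to 4.31, and of Mymk, from 4.01 to 4.51, lie above all F1 points, and the pools of F1 EX stand far apart in Myod1 and Myf5.

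The comparison of F2 with F1 asked whether the sedentary generations differ at the same age. Myog averaged 4.24 ± 0.07 in F2 arrays and 3.90 ± 0.10 in F1 arrays (SD, n = 4 each), which differ by 0.34 on the log2 scale, or 1.27-fold, with a limma SE of 0.0843 and a 95% interval of 0.16 to 0.53. Mymk averaged 4.23 ± 0.22 in F2 arrays and 3.74 ± 0.12 in F1 arrays (SD, n = 4 each), which differ by 0.49, or 1.40-fold, with an SE of 0.122 and an interval of 0.22 to 0.76. Myf6 averaged 8.96 ± 0.02 in F2 arrays and 8.70 ± 0.18 in F1 arrays (SD, n = 4 each), which differ by 0.26, or 1.20-fold, with an SE of 0.101 and an interval of 0.04 to 0.49. These are the differentiation factor, the fusion protein and the factor most typical of mature fibres in the list. Of the 9 members, 0 passed the adjusted test. The F1 arrays of Myog, from 3.77 to 4.003, and of Mymk, from 3.58 to 3.87, lay close above 3.55. That level is the 99th percentile of the olfactory receptor genes. The highest receptor gene mean, 4.43, was above every Myog array and every Mymk array but F2 EX pool 1. The sizes for Myog and Mymk are thus those of low signals.

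In limma with Benjamini-Hochberg adjustment over 11963 genes, the adjusted p was 0.911 for each of Myog, Mymk and Myf6, and 0 genes (0%) were called in this comparison. The unadjusted limma p was 0.00207 for Myog, 0.00224 for Mymk and 0.0247 for Myf6. At an unadjusted p under 0.05, 3 of 9 members were higher and 0 lower in F2, where 2.45% of all genes were higher and 1.81% lower. For Myf6 that p was above 0.05 when F1 EX pool 1, F1 SED pool 2 or either F2 EX pool was left out, at 0.0552, 0.0872, 0.0598 and 0.0655, while for Myog and Mymk it was at most 0.00938 and 0.0085 over the alternatives that tested them. The same 3 members had F2 and F1 arrays that did not overlap, against 1.77% of genes higher and 1.11% lower. Ordered by p, Myog and Mymk were genes 24 and 26 of the 11963 tested. With no true difference, about as many genes would reach p-values that small. With limma's trended and robust variance, 0 members and 2 genes were called.

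The remaining members had smaller estimates. For F2 minus F1, Ncam1 was at 0.13 and Cdh15 at 0.12, with unadjusted limma p-values of 0.193 and 0.213. Myf5 was at 0.08 and Myod1 at -0.05, with intervals of -0.31 to 0.47 and -0.41 to 0.30. Pax7 was at -0.11 (interval -0.33 to 0.11) and Mef2c at -0.11 (interval -0.29 to 0.07). The median of the 9 estimates was 0.12, against 0.0047 over all genes, and 6 of the 9 lay above 0, against 51.6% of all genes.

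**Figure D2:**
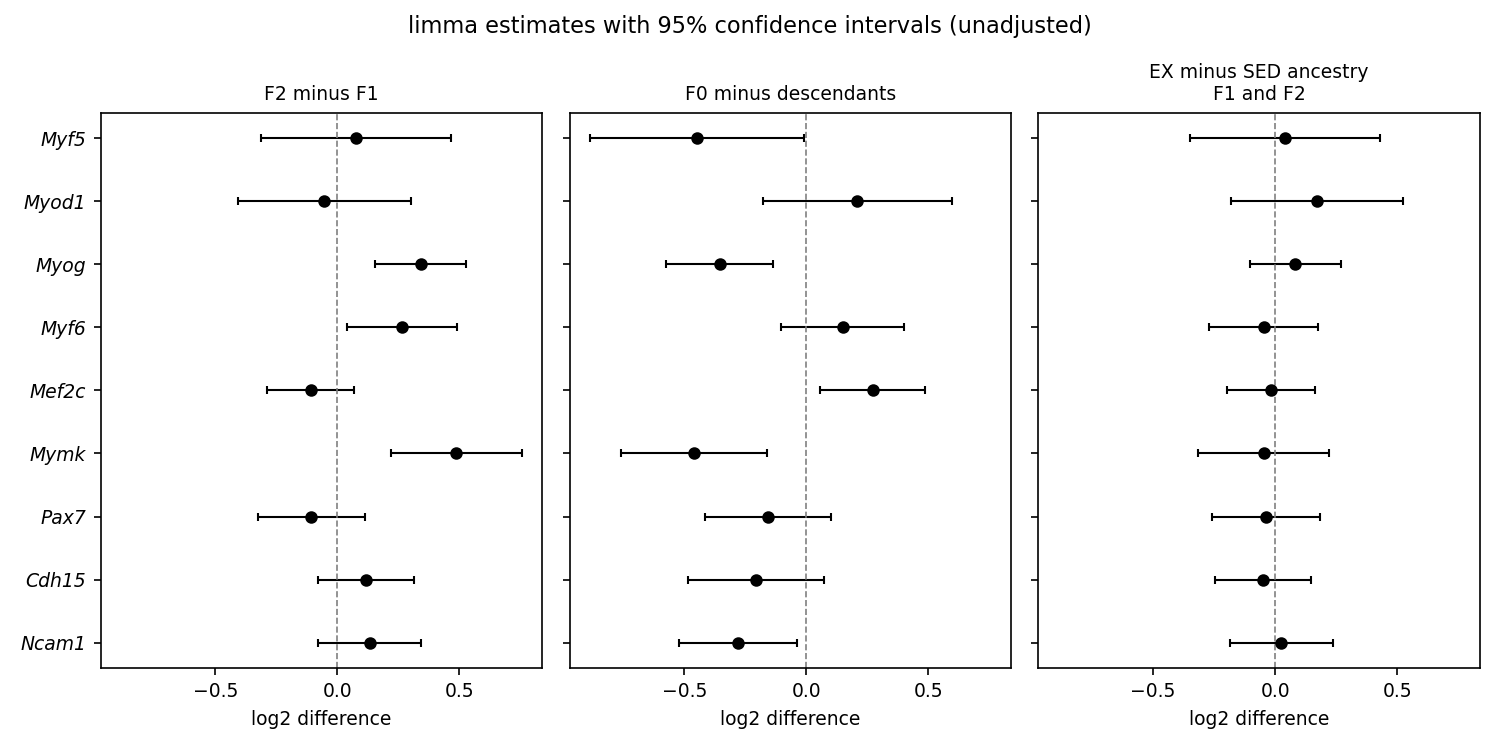
Estimated log2 difference of each gene with its 95% limma interval, for F2 minus F1, F0 minus descendants and EX minus SED ancestry. The F2 minus F1 intervals of Myog (0.16 to 0.53), Mymk (0.22 to 0.76) and Myf6 (0.04 to 0.49) lie above 0, and the ancestry intervals of all 9 genes include 0.

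The genes nearest to Myog over the 8 descendant arrays were Lrp2bp, Fbxo4 and Pak2, at Pearson r 0.94, 0.92 and 0.92. Those nearest to Mymk were Borcs7, Tppp and Nup62, at 0.97, 0.97 and 0.95. The points of such a correlation are arrays of 2 generations that share their hybridisation across genes, so the coefficient is a description. Both members also separated F2 from F1 on the same arrays. Within F2 the order differed in part, since F2 EX pool 1 was highest in both, and F2 EX pool 2 was lowest in Mymk but not in Myog.

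**Figure D3:**
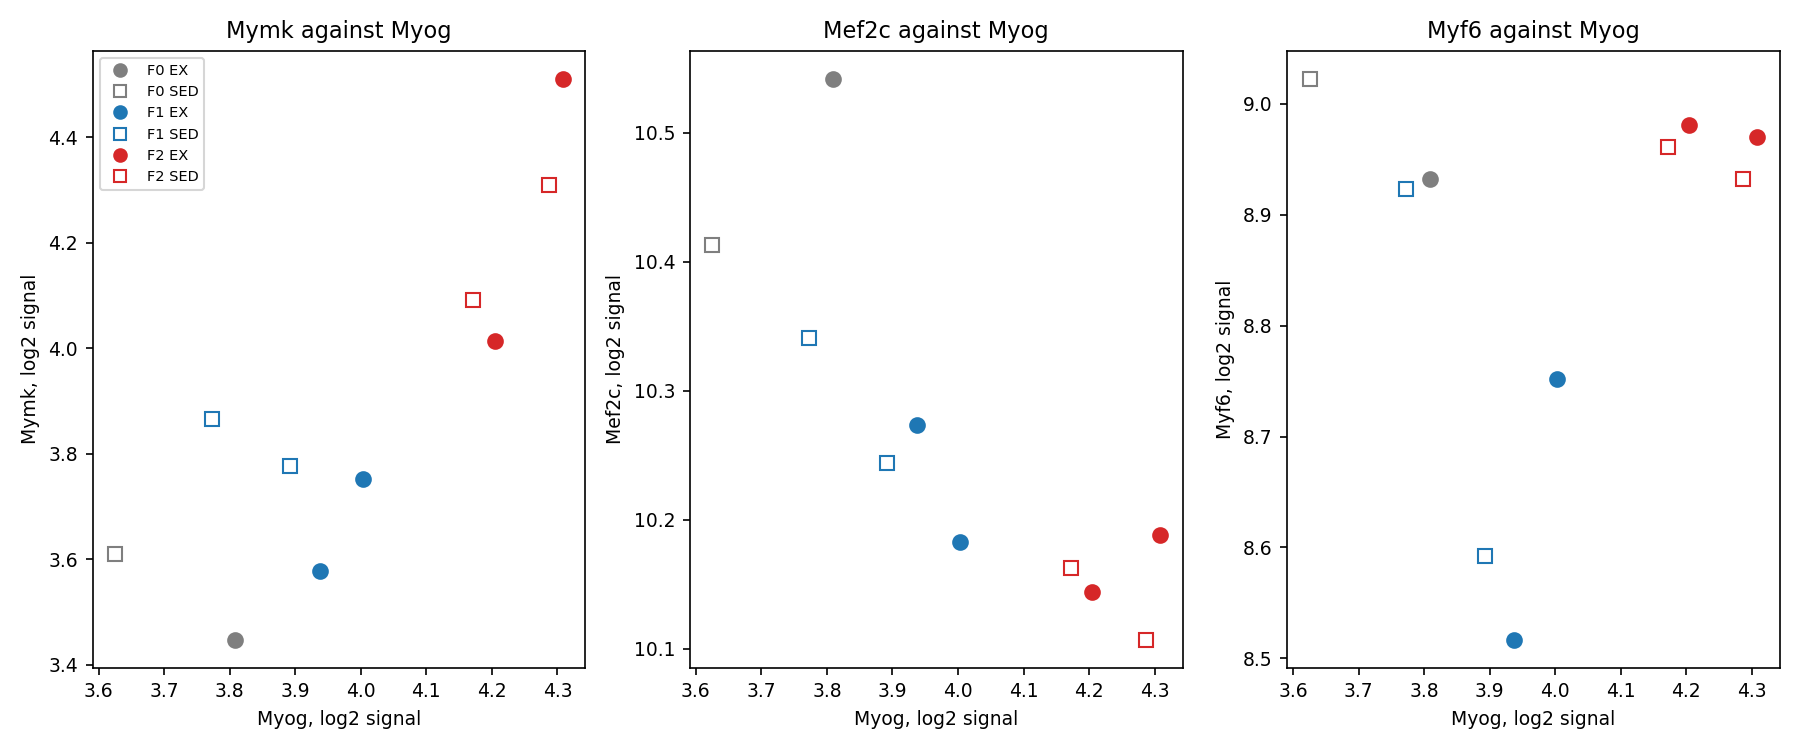
Log2 signal of Myog on the horizontal axis against Mymk, Mef2c and Myf6 on the vertical axes, with 1 point per array, colours for generation, filled circles for EX and open squares for SED. For Mymk and Myf6 the 4 F2 arrays lie above and to the right of all F1 arrays, and for Mef2c the F0 arrays lie at the upper left, at 10.41 and 10.54.

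Genes that work with the members were described as lists for the same comparison of F2 with F1, in which 0 were called. Of 13 kept genes of the embryonic or denervation type that the myogenic factors activate, 2 were higher and 1 lower at unadjusted p under 0.05, with a median estimate of 0.15. Mybph, a myosin-binding protein of immature and stressed muscle, had an estimate of 0.45 and Actc1, cardiac actin made in developing muscle, 0.41, both with a limma adjusted p of 0.785. Of 25 kept surface, niche and quiescence genes of satellite cells, 3 were higher and 0 lower at that level, with a median of 0.07. Cdkn1c, a cell cycle inhibitor, was at 0.41 (adjusted p 0.785). Of 13 kept fusion and differentiation genes, 1 was higher, the growth factor Igf2 at 0.38 (adjusted p 0.9).

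Partners and regulators of the factors had 0 of 22 kept genes at unadjusted p under 0.05 in either direction and a median of 0.02. Of 15 cell cycle genes listed, 7 were kept, and 1 of them was lower in F2 at that level, the replication gene Mcm3 at -0.22 (adjusted p 0.911). Mymx, whose product acts with myomaker in fusion, was looked at after its values were seen and had an estimate of -0.10. Myofibre, Schwann cell, fibroblast, endothelial, myeloid, adipocyte and smooth muscle markers had 0 called genes and 0 at unadjusted p under 0.05 between F2 and F1. Their medians ran from -0.05 for smooth muscle to 0.18 for adipocytes, and the myofibre markers, all 8 at 0.00865 or more, had a median of 0.05.

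The comparison of F0 with all descendants sets 28-week-old parents and grandparents against 8-week-old offspring. Mef2c averaged 10.48 ± 0.09 in F0 and 10.21 ± 0.08 in descendants (SD, n = 2 and 8), a limma estimate of 0.27 with an SE of 0.0986. Ncam1 averaged 5.57 ± 0.05 in F0 and 5.85 ± 0.12 in descendants, an estimate of -0.28 with an SE of 0.110. Myog averaged 3.72 ± 0.13 in F0 and 4.07 ± 0.20 in descendants, an estimate of -0.36 (SE 0.101), and Mymk averaged 3.53 ± 0.11 and 3.99 ± 0.31, an estimate of -0.46 (SE 0.137). None of these passed the adjusted limma test, with adjusted p-values of 0.179 for Mef2c, 0.216 for Ncam1, 0.0976 for Myog and 0.112 for Mymk.

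Of the 9 members 0 were called here, where 2.33% of all genes were (0.794% higher and 1.54% lower in F0). At unadjusted p under 0.05, 1 member was higher and 4 lower, against 7.61% and 10% of genes. That count of 5 was 2 without the F0 EX array, where the limma p was 0.149 for Mef2c, 0.0686 for Ncam1, 0.062 for Mymk and 0.42 for Myf5, and it was 1 with array weights. Mef2c lay higher and Ncam1 lower in F0 without overlap of arrays, as did 5.79% and 6.65% of genes. The fourth lower member, Myf5, was at -0.45 (interval -0.89 to -0.0083, adjusted p 0.275), and was at -0.23 without the F0 EX array and -0.66 without the F0 SED array. The F0 means of Mymk and Myf5, both 3.53, lay below 3.55, the 99th percentile of the olfactory receptor genes. Their F0 signals were thus not clearly above that level, and the sizes of these differences may understate the change in transcript. Cdh15 was at -0.21, Pax7 at -0.16, Myf6 at 0.15 and Myod1 at 0.21, with limma adjusted p-values from 0.441 to 0.583. The estimates of the 9 had a median of -0.21, against -0.02 over all genes. Cdh15 was not among the 5 but entered the count when the F0 EX array was left out, at an estimate of -0.46. Its estimate was 0.05 without the F0 SED array, so that 1 array set its sign.

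Around the members, some genes of related function were called between F0 and descendants, as were 2.33% of all genes. The lists were chosen with earlier results of these data known, so these calls are a description and no separate support. In the embryonic or denervation-type list 1 gene rose and 3 fell in F0 among 13, against 0.794% and 1.54% of all genes. Mybph fell to 8.45 in F0 EX and 7.80 in F0 SED arrays, against 10.30 to 11.01 in descendants, a limma estimate of -2.57 (SE 0.152, adjusted p 4.99e-06). Actc1 fell to 10.95 in F0 EX and 9.86 in F0 SED arrays, against 12.69 to 13.21 in descendants (estimate -2.56, SE 0.188, adjusted p 2.51e-05). Myl4, an embryonic and atrial myosin light chain, was lower by a smaller amount, at -0.57 (adjusted p 0.0161), while Musk, the receptor kinase of the neuromuscular junction, rose by 0.67 (adjusted p 0.0307). Igf2, a growth factor of fetal and young tissues, was the 1 called gene of the 13 in the fusion and differentiation list, at -0.93 (SE 0.107, adjusted p 0.00105).

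Over all genes, 0.794% were called higher in F0. Among partners and regulators 1 of 22 rose, Tead4, a TEAD factor active in myoblasts, at 0.69 (limma adjusted p 0.0262). Among surface, niche and quiescence genes 1 of 25 rose, the Notch target Hes1 at 0.64 (adjusted p 0.0472). At unadjusted p under 0.05 another 10 of these 25 were lower in F0, against 10% of all genes. Tead4 and Hes1 were both higher in F0 SED (6.13 and 6.32) than in F0 EX (5.41 and 5.71). Without the F0 SED array their estimates were 0.36 and 0.27, with limma adjusted p-values of 0.33 and 0.459. Without that array Myl4 stayed at -0.58 with an adjusted p of 0.125, and without the F0 EX array Musk was at 0.40 with 0.145. Leaving out single descendant pools also ended calls, with adjusted p from 0.0502 to 0.0971. This held for Hes1 with each pool but F1 EX pool 1, for Tead4 with each but F1 EX pool 1 and F2 EX pool 1, and for Musk with F1 EX pool 2, F1 SED pool 2, both F2 EX pools or F2 SED pool 2. Of the 7 kept cell cycle genes 0 were called. List medians were -0.27 for the embryonic or denervation type, -0.22 for surface genes, -0.17 for fusion, 0.0029 for partners and -0.04 for the cell cycle.

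Markers of other cells moved in the same comparison. Of 7 endothelial markers Pecam1 and Cdh5 fell in F0, at -0.71 and -0.62, with limma adjusted p-values of 0.0134 and 0.0268. All 7 estimates lay below 0, with a median of -0.37 against -0.02 over all genes. In 4 of the 7, F0 arrays lay lower without overlap, as did 6.65% of genes. The mean deviation of that list from its all-array mean was -0.15 for F0 EX and -0.47 for F0 SED, against 0.01 to 0.17 in descendants. Of 6 fibroblast markers the collagen genes Col1a1 and Col3a1 fell, at -2.27 and -1.50. The list's deviation was -0.50 for F0 EX and -0.65 for F0 SED, against 0.0021 to 0.29 in descendants. That mean rests largely on the collagens, and the list's median estimate was -0.24. Pdgfra, Dcn, Lum and Tcf7l2 were not called. In F0 EX each of them lay within its range in descendants, and in F0 SED Dcn and Lum lay below it. Schwann cell, myeloid, adipocyte, smooth muscle and myofibre markers had 0 called genes. The myofibre list deviated by 0.06 for F0 EX and -0.24 for F0 SED, against -0.12 to 0.09 in descendants. For Schwann cells, which also express Ncam1, 4 of 8 listed markers were kept. Their deviation was -0.31 for F0 EX and 0.10 for F0 SED, against -0.07 to 0.28. That mean mixes unlike markers, and 2 of the 4 estimates lay above 0. Pmp22 was below all its descendant values (9.66 to 10.19) on both F0 arrays, at 9.26 for EX and 9.64 for SED. Sox10, Mag and Ncmap ran from 3.27 to 3.99 over the 10 arrays, near the receptor level of 3.55. The part of these markers in the members' differences was not tested.

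**Figure D4:**
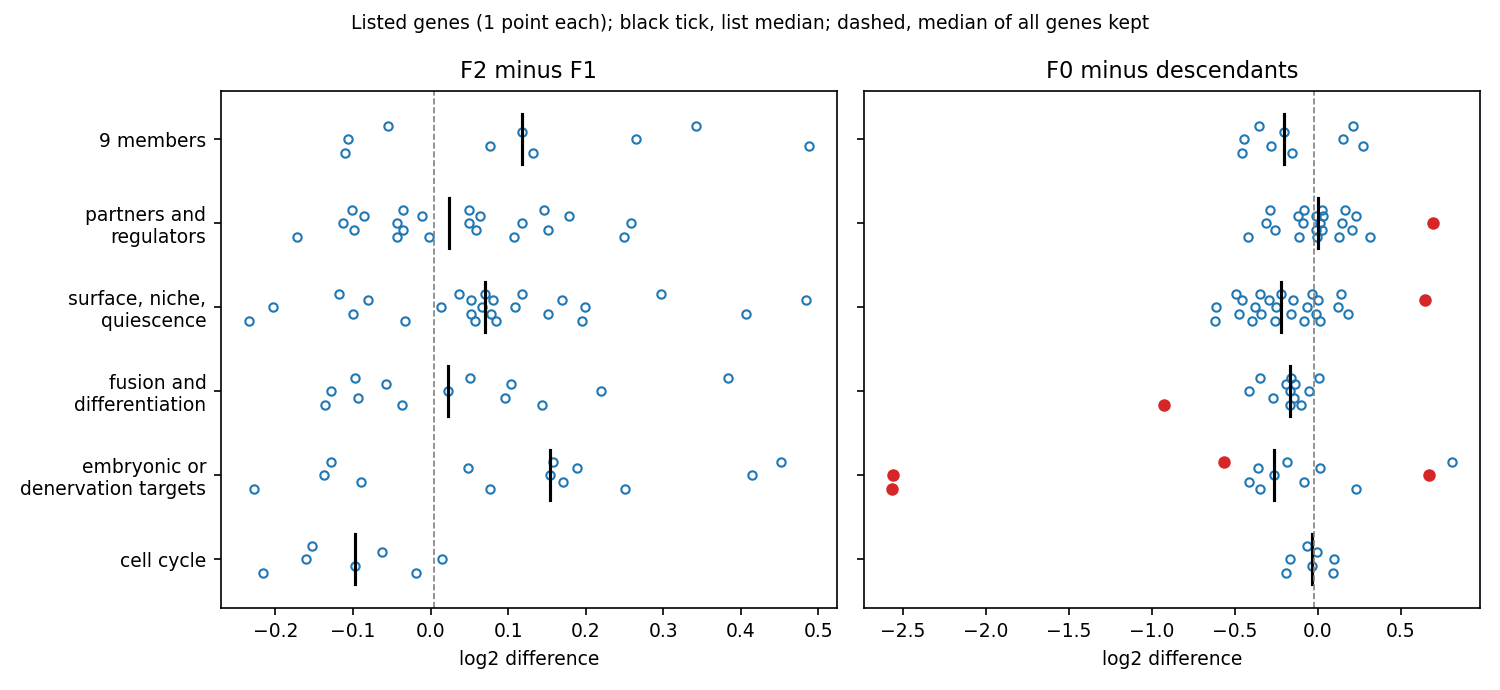
Log2 difference of each listed gene (1 point each) in F2 minus F1 on the left and F0 minus descendants on the right, with the list median as a black tick, the median of all kept genes dashed, and genes of adjusted p under 0.05 filled red. No gene is called on the left, while on the right Mybph and Actc1 lie near -2.57 and -2.56 and the 9 members stay between -0.46 and 0.27.

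Ancestry was the comparison the study was built on, and it was made over both sedentary generations. Myod1 averaged 6.83 in EX descendants and 6.65 in SED descendants, a limma estimate of 0.17 with a 95% interval of -0.18 to 0.53. Myog averaged 4.11 in EX descendants and 4.03 in SED descendants, an estimate of 0.08 (interval -0.10 to 0.27). The other 7 members had estimates between -0.05 and 0.04, in the order Myf5 0.04, Ncam1 0.03, Mef2c -0.02, Pax7 -0.04, Mymk -0.05, Myf6 -0.05 and Cdh15 -0.05. Their intervals reached furthest for Myf5, from -0.35 to 0.43.

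With limma and Benjamini-Hochberg adjustment 0 of 9 members were called, as were 0% of all genes, and members' adjusted p-values were 0.901 to 0.982. At unadjusted p under 0.05 there were 0 members and 597 genes (4.99%), and arrays of EX and SED descendants separated without overlap in 0 members and 3.03% of genes. Trended and robust variance also called 0 members and 0 genes. The members' median estimate was -0.02, against 0.01 over all genes. An interval that includes 0 bounds the difference and does not show that the ancestries were alike: for Pax7 it ran from -0.26 to 0.18, and for Mymk from -0.32 to 0.22. Markers of other cells had 0 called genes in the same comparison. The 4 adipocyte markers had a median of -0.43 with 2 lower at unadjusted p under 0.05, and the 5 myeloid markers -0.24 with 1 lower. The 6 fibroblast markers had a median of 0.20 with 2 higher, and the 4 Schwann cell markers 0.07 with 1 higher. Their part in the members' estimates was not tested.

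Within F1, EX minus SED was 0.18 for Myod1 (interval -0.35 to 0.71) and 0.16 for Myf5 (interval -0.41 to 0.74). In both genes the pools of F1 EX lay on either side of both F1 SED pools. With pool 2 of F1 EX left out, Myod1 was at 0.62 with a limma adjusted p of 0.036 and was called, as were 8.74% of genes. With pool 1 left out instead, Myod1 was at -0.26 and Myf5 at -0.29. Each of these settings leaves a lone F1 EX array, which the fit assumes to vary like the other groups. Myog at 0.14 was higher and Mymk at -0.16 lower in F1 EX without overlap of arrays, as were 13% and 16.6% of genes. The 4 adipocyte markers had a median of -0.85 in F1, and 3 of them were lower in F1 EX at unadjusted p under 0.05 and without overlap of arrays. In the full fit 0 of 9 members and 0% of genes were called in F1, with 0 members and 4.88% of genes at unadjusted p under 0.05.

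Within F2, EX minus SED was 0.16 for Myod1, 0.11 for Ncam1 and 0.03 for Myf6. These 3 were higher in F2 EX without overlap, as were 25.8% of all genes, and 0 were lower, against 14.6% of genes. Their limma adjusted p was 1, and 0 of 9 members and 0% of genes were called, with 0 members and 4.45% of genes at unadjusted p under 0.05. The ancestry effect in F2 minus that in F1 ran from -0.24 for Myf5 (interval -1.05 to 0.58) to 0.22 for Mymk (interval -0.33 to 0.77). In that test of the difference 0 of 9 members and 0% of genes were called, and 0 members had an unadjusted p under 0.05, against 4.34% of genes.

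Exercised and sedentary F0 mice had 1 pool each, so their differences have no replicate check and no test. Cdh15 had the largest difference toward F0 EX, with 6.03 in the F0 EX pool and 5.57 in the F0 SED pool, a difference of 0.46. The F0 EX value lay within the descendant range of 5.81 to 6.17. The F0 SED array, the least like the rest, lay below that range. After Cdh15 came Myog at 0.18, Mef2c at 0.13 and Ncam1 at 0.08. Myod1 was at -0.0090, Myf6 at -0.09, Mymk at -0.16, Pax7 at -0.24 and Myf5 at -0.39. Beyond a size of 0.5, 0 of 9 members were higher and 0 lower, against 15.3% and 5.38% of all genes. The F0 SED array had a median 0.15 higher than F0 EX, and after centring the arrays on their medians 24.5% of genes were higher and 2.55% lower, or with quantile normalization 10.7% and 7.75%. The direction of 4 members turned with the scaling. Mef2c was at 0.28 after centring and -0.14 after quantile normalization, and Ncam1 at 0.22 and -0.03. Myod1 was at 0.14 after centring and -0.23 after quantile normalization, and Myf6 at 0.06 and -0.31. Cdh15, at 0.60 after centring and 0.33 after quantile normalization, and Myog, at 0.33 and 0.30, were above 0 in each scaling, and Myf5, Pax7 and Mymk were below 0 in each.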

How the data were processed

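The values are log2 signals per probe set, deposited by the authors in a single table and used unchanged. Affymetrix Expression Console is the tool that the submitters' processing notes list. Not given in the sources used here are its version, background step, normalization, summarization and genome build. The number of arrays limits precision.

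Probe sets took gene symbols from the GEO platform annotation, which may be out of date, checked against a RefSeq table (GRCm38.p6). Of several probe sets of a gene, that with the highest mean was used. Genes at or above the 40th percentile of mean signal (log2 3.23) were kept. Fits used limma 3.58.1 in R 4.3.3 (lmFit, eBayes) with Benjamini-Hochberg adjustment over 11963 genes, threshold 0.05. Generation and ancestry entered additively on the 8 descendant arrays. Effects within a generation used a model of 4 groups, and F0 minus descendants an additive model on 10 arrays. Scripts were tested on simulated data.

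The members, lists and tests were chosen with earlier results of these data known. Named genes are the 9 members, up to 4 genes of each list by smallest p, cell type markers, and the 3 genes nearest a member by Pearson r. Alternatives covered scaling, filter, probe set choice, variance model, array weights, pool number as a block and leaving out each pool. Pools of the same number did not deviate together across groups (r from -0.111 to 0.0643). The labels do not say that the numbers mark anything shared, and these r cannot exclude it.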

Additional observations from a re-analysis of the deposited data

Results flagged for a closer look

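In 45 sets of 4 to 10 arrays (9 genes in 5 sets), 2 values stood further from the rest than Dixon's 95% critical value allows, and chance gives about 1 in 20. Myf5 was 4.21 in F2 SED pool 2, while the other 3 arrays of SED descendants lay between 3.84 and 3.90. Myf6 was 8.59 in F1 SED pool 2, while the other 3 arrays of SED descendants lay between 8.92 and 8.96. That set holds both generations, and within F1 this value lay between the F1 EX pools, at 8.52 and 8.75. The Myf5 value sits in F2 and the Myf6 value in F1, so neither array is far from the rest in both genes.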

How the results depend on the processing

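Over all alternatives run, the F2 minus F1 estimate stayed between 0.31 and 0.39 for Myog, 0.37 and 0.57 for Mymk and 0.20 and 0.35 for Myf6, with limma adjusted p-values no lower than 0.394, 0.51 and 0.577. With the pool number as a replicate block, 0 members were called in each comparison among descendants. No replicate block was fitted for F0 minus descendants, since each F0 group had 1 pool, without a number. With the filter at the 60th percentile, 5 of the 9 members were tested.

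Some estimates that missed the threshold changed sign. With array weights, Myod1 in F2 minus F1 was 0.059, and in the ancestry comparison Myf5 was -0.11 and Myf6 0.024. With quantile normalization Myf6 in F2 EX minus SED was -0.027. Without the F0 SED array and F1 EX pool 1 together, chosen after seeing the data, Cdh15 in F0 minus descendants was 0.0023. The cause was not tested.

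With 1 pool left out at a time, F2 minus F1 ran from -0.23 to 0.12 for Myod1 and from -0.078 to 0.28 for Myf5, and F0 minus descendants from -0.46 to 0.048 for Cdh15. Ancestry ran from -0.0053 to 0.35 for Myod1, -0.16 to 0.20 for Myf5, -0.098 to 0.034 for Myf6, -0.092 to 0.021 for Pax7, -0.011 to 0.095 for Ncam1, -0.037 to 0.012 for Mef2c and -0.17 to 0.030 for Mymk. F1 EX minus SED ran from -0.26 to 0.62 for Myod1 and from -0.29 to 0.61 for Myf5, with 0 to 1 members called. The difference of ancestry effects ran from -0.030 to 0.47 for Mymk and from -0.68 to 0.21 for Myf5.

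Between F0 and descendants, 279 genes were called. The count was 38 with array weights, 170 without F0 SED and F1 EX pool 1, 86 without F0 SED, 1231 without F0 EX, 584 without F1 EX pool 1, 181 without F2 SED pool 2 and 185 without F2 EX pool 2, with 0 members each time. Tead4, Hes1, Musk and Myl4 were no longer called with array weights (adjusted p 0.229, 0.35, 0.375 and 0.35). With quantile normalization Hes1 had an adjusted p of 0.0554, without a filter 0.0583, and with centring Musk had 0.0578, while Mybph, Actc1 and Igf2 were called in each alternative run. In F2 minus F1, array weights called 1 gene. In the difference of ancestry effects 143 genes were called without F1 EX pool 2 and 5 without F1 SED pool 1. In F1 EX minus SED 1046 genes were called without F1 EX pool 2 and 8 without F1 SED pool 1. In F0 EX minus SED, centring put 1 member past 0.5 and turned Myod1 (0.14) and Myf6 (0.06), and quantile normalization turned Mef2c (-0.14) and Ncam1 (-0.03).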
